A study of Mus musculus with 8 samples.

Results

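The amino acid transporter genes described here are the 59 genes of the deposited expression table, out of 38610 gene symbols in all, whose symbol places them in solute carrier family 1, 3, 6, 7, 36, 38 or 43. They were chosen by symbol and not by any measured value. Expression was measured by RNA-seq as FPKM, which is fragments scaled to transcript length and to library size, in CJ9 mouse embryonic stem cells of strain 129S4/SvJae on day 4 after withdrawal of LIF, a cytokine added to culture medium to keep such cells undifferentiated. The groups were Evx1as KO cells (3 libraries), labelled as knockouts of a long noncoding RNA gene, EVX1 KO cells (3 libraries), labelled as knockouts of its neighbour, which encodes the homeobox protein EVX1, and WT cells (2 libraries). Per the series title both knockouts were made by CRISPR, and no further allele or agent distinguishes the groups in the labels. The labels do not say how many clones stand behind each knockout, or whether replicates came from separate cultures, so the p-values below measure only the spread between these libraries, which may be technical.

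Amino acid transporters move amino acids across the plasma membrane and the membranes of lysosomes, and they work as carriers that follow a gradient, as carriers coupled to sodium or protons, or as exchangers that trade an amino acid inside for another outside. Several members of family 7 are light chains that reach the cell surface only when joined to a heavy chain of family 3. Embryonic stem cells depend on imported glutamine, threonine, proline and other amino acids, and supply inside the cell is read by the mTORC1 and ATF4 pathways, which control growth and the genes of amino acid import and synthesis.

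Summed FPKM was 531523 to 587798 per library, and 12244 to 12442 genes reached 1 FPKM. The table holds no read counts. From the smallest steps among low values, the libraries' depth relative to WT library 1 was estimated at 0.868 to 1.20, with 23.8% to 26.1% of the low genes used lying at the step in the other 7 libraries; absolute depth is unknown, so no counting interval can be given. Evx1as itself was at 0.0690 ± 0.0302 FPKM in Evx1as KO cells and 6.05 ± 0.986 FPKM in WT cells (SD, n = 3 and 2). The transcript of Evx1 was at 2.28 ± 1.66 FPKM in Evx1as KO cells, 26.3 ± 5.45 FPKM in EVX1 KO cells and 26.6 ± 6.50 FPKM in WT cells (SD, n = 3, 3 and 2), so it gives no check of the EVX1 KO label. None of 6 pluripotency markers was at 0 in any group, and Esrrb was under 1 FPKM in EVX1 KO libraries. The summed level of the 6 was 554 to 650 FPKM in Evx1as KO libraries, 463 to 477 in EVX1 KO libraries and 368 to 414 in WT libraries, most of it from Pou5f1. By the test described below 3 of the 6 rose and 1, Klf4, fell in Evx1as KO against WT, with a median log2 fold change of 0.08. The summed level of 5 markers of primitive streak and mesoderm was 38.1 to 134 FPKM in Evx1as KO libraries, 303 to 332 in EVX1 KO libraries and 324 to 365 in WT libraries. The summed level of 4 markers of primed epiblast was 314 to 337, 190 to 221 and 119 to 151 FPKM in Evx1as KO, EVX1 KO and WT libraries. All 5 streak and mesoderm markers fell and 3 of the 4 primed epiblast markers rose in Evx1as KO against WT by the same test. Of 4 endoderm markers the sum was 0.842 to 6.03, 34.0 to 60.2 and 13.7 to 25.2 FPKM in the same order of groups, with Sox17, Gata4 and Gata6 under 1 FPKM in Evx1as KO libraries. Of 4 trophoblast markers it was 16.8 to 53.4, 53.4 to 71.5 and 80.9 to 114 FPKM, with Elf5 under 1 FPKM in every group and at 0 in Evx1as KO libraries. Of 3 neuroectoderm markers the sum was 60.2 to 82.8, 26.3 to 62.8 and 62.6 to 79.0 FPKM, and Sox1 was under 1 FPKM in EVX1 KO and WT libraries and rose in Evx1as KO against WT (1.69 ± 0.21, limma adjusted p = 0.00171). Sox1 passed the filter described below only through the Evx1as KO libraries, so the filter had selected it for being high there. It was the 1 called of 2 neuroectoderm markers tested, and Pax6 was under 1 FPKM in every group and was not tested. The pluripotency, streak, primed epiblast, endoderm and trophoblast sums move with the Evx1as KO label, and those of pluripotency, primed epiblast, endoderm and trophoblast markers also differ without overlap between EVX1 KO and WT libraries. Their part in the transporter results was not tested, and in bulk RNA fewer cells of a type and less RNA per cell cannot be told apart.

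A small set of transporters carried most of the expression. Of the 59 genes, 53 were above 0 in at least 1 library, 24 reached 1 FPKM in all libraries, and 16 had a mean of at least 10 FPKM. The highest were Slc3a2, the heavy chain of the large neutral and related exchangers, at a mean of 87.0 FPKM over the 8 libraries, and Slc7a7, a light chain that exchanges cationic for neutral amino acids, at 85.7 FPKM. They were followed by the leucine and glutamine exchanger light chain Slc7a5 at 73.7 FPKM, the taurine carrier Slc6a6 at 68.5 FPKM, and the sodium-coupled neutral carriers Slc38a2 at 68.1 FPKM and Slc38a4 at 48.2 FPKM. These 6 genes held 56.6% to 66.7% of the FPKM summed over all 59. The sum over the 59 genes was 680, 697 and 606 FPKM in the 3 Evx1as KO libraries, 668, 717 and 780 in the EVX1 KO libraries and 682 and 680 in the WT libraries, so the WT values lie inside the range of each knockout.

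**Figure D1:**
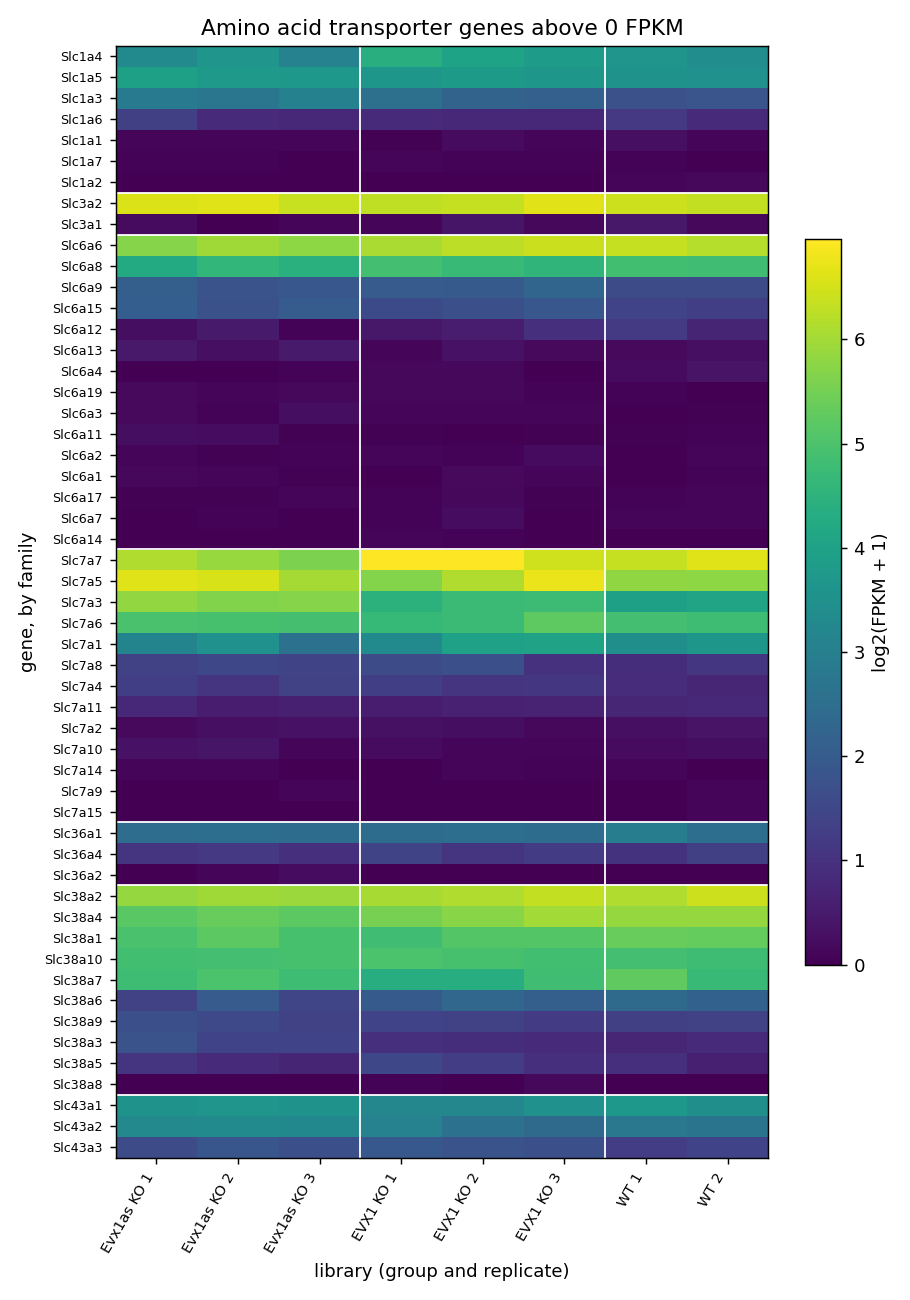
Level of the 53 amino acid transporter genes above 0 FPKM (one per line, grouped by family and ordered by mean) in each of the 8 libraries, as log2(FPKM + 1) on the colour scale. The bright lines are Slc3a2, Slc7a7, Slc7a5, Slc6a6, Slc38a2 and Slc38a4, and most of family 6 is near 0 in all libraries.

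Tests were run on the 30 transporter genes that reached 1 FPKM in at least 2 of the 8 libraries, on the scale log2(FPKM + 1), which understates the change of low genes. A gene was called when its Benjamini-Hochberg adjusted p from limma, over all 13188 genes tested, was under 0.05. In Evx1as KO against WT, 5 of the 30 rose (Slc7a3, Slc1a3, Slc38a3, Slc6a15 and Slc43a2), where 13% of all tested genes did, and 5 fell (Slc38a6, Slc38a4, Slc7a7, Slc6a6 and Slc6a8), where 11.4% of all tested genes did. In either direction this is 33.3% of the transporter genes tested and 24.5% of all genes tested. Slc38a3 was tested only because it reached 1 FPKM in the Evx1as KO libraries, the group where it is high; among the other 29 genes 4 rose and 5 fell. The groups did not overlap for 13 transporter genes above WT (29.5% of all tested genes) and 8 below WT (26.2% of all tested genes). The 13 include Slc38a3, and also Slc7a4, which reached 1 FPKM only in knockout libraries. The filter had thus favoured both genes for being above WT. The median log2 fold change was 0.06 over the 30 genes and 0.02 over all genes tested.

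In EVX1 KO against WT, Slc7a3 alone rose (0.69% of all tested genes did) and no transporter gene fell (0.554% of all tested genes did), with 8 of the 30 genes at an unadjusted limma p under 0.05 (26.7%, against 21.2% of all tested genes). Every EVX1 KO library was above both WT libraries for 10 of the 30 genes (21.2% of all tested genes), and below both for 1, the glutamine carrier Slc38a1 (17.9% of all tested genes). Of the 10, Slc7a4 and Slc38a5 reached 1 FPKM only in knockout libraries, and Slc38a3 only in Evx1as KO libraries. The filter had thus partly selected Slc7a4 and Slc38a5 for being above WT. The median log2 fold change was 0.08 over the 30 genes and 0.02 over all genes tested. This comparison and the one above share the WT libraries.

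In EVX1 KO against Evx1as KO, 4 of the 30 genes were higher in EVX1 KO cells (Slc7a7, Slc1a4, Slc38a4 and Slc6a6; 10.7% of all tested genes) and 4 were lower (Slc7a3, Slc38a3, Slc43a2 and Slc1a3; 11.3% of all tested genes). In either direction this is 26.7% of the transporter genes tested and 22% of all genes tested. Slc38a3 entered this test through the Evx1as KO libraries alone, and among the other 29 genes 4 were higher and 3 lower. The groups did not overlap for 5 genes above (20.1% of all tested genes) and 5 below (20.8% of all tested genes), with Slc38a3 among those below. The median log2 fold change was -0.01 over the 30 genes and -0.00 over all genes tested. This comparison shares the Evx1as KO libraries with Evx1as KO against WT, and 7 transporter genes were called in both, with opposite signs. The calls of these comparisons are therefore not independent. In all 3 comparisons 11 of the 30 tested genes were called at least once and 19 were not.

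**Figure D2:**
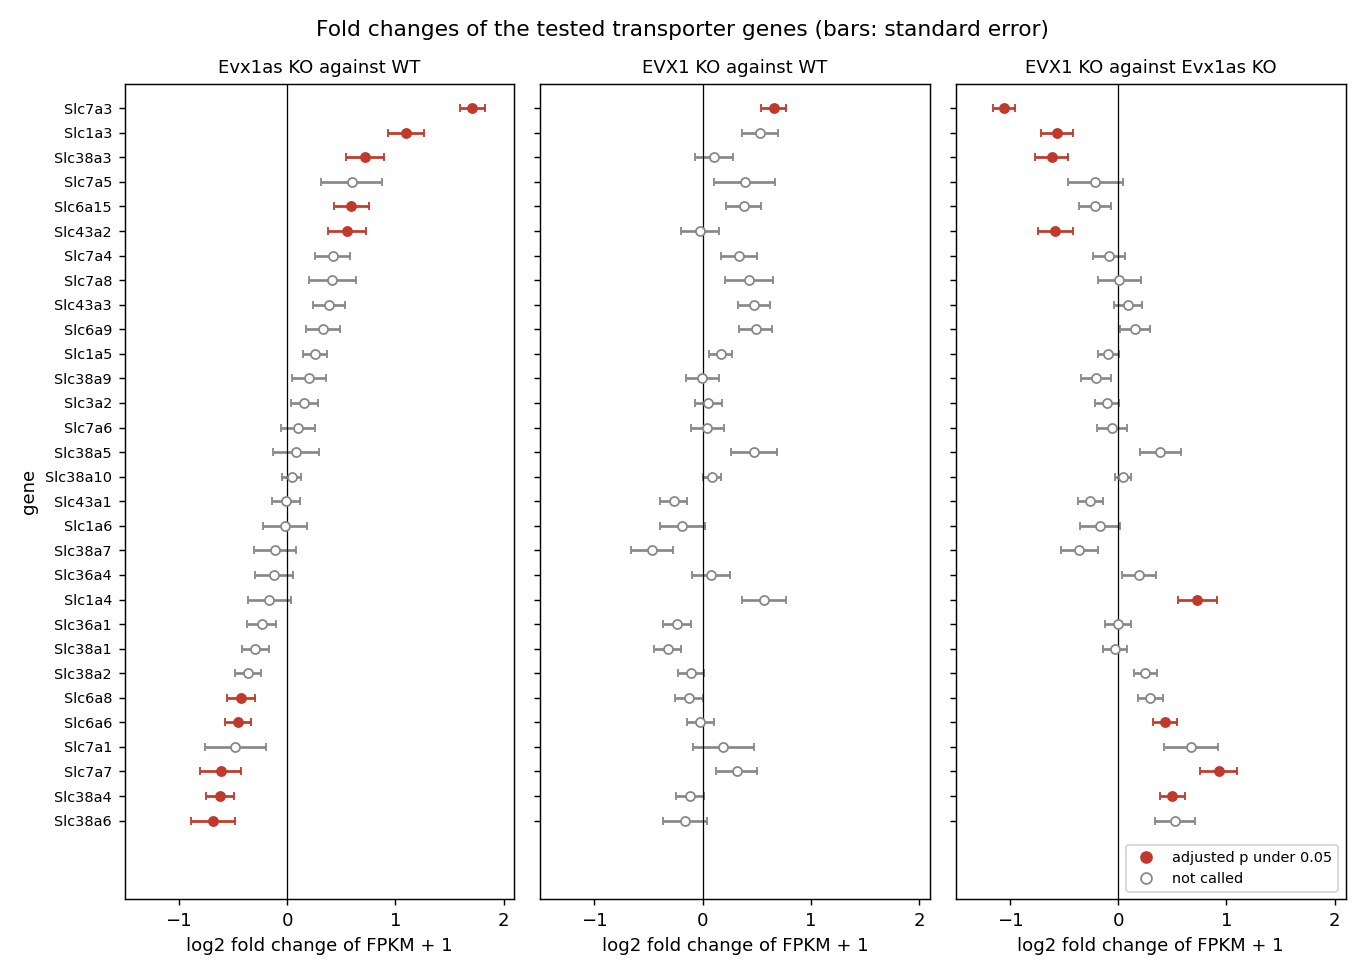
Log2 fold change on the log2(FPKM + 1) scale, with its standard error, of the 30 tested transporter genes in the 3 comparisons; filled red points have a limma adjusted p under 0.05. Slc7a3 stands at 1.71, 0.66 and -1.05 in the 3 panels, and the genes at the bottom of the left panel (Slc7a7, Slc38a4) stand right of 0 in the right panel. The left and right panels share the Evx1as KO libraries, which enter them with opposite signs.

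Carriers of cationic amino acids held the largest change among the transporter genes tested, and it was in a single gene. Slc7a3 (chromosome X, 98274559 to 98280691 in the deposited table, whose build is not stated) encodes a carrier of arginine, lysine and ornithine. It had 55.5, 48.9 and 51.3 FPKM in Evx1as KO libraries, 21.3, 26.0 and 26.5 FPKM in EVX1 KO libraries, and 14.5 and 15.8 FPKM in WT libraries. All Evx1as KO libraries were above all EVX1 KO libraries, and these were above both WT libraries. The mean was 51.9 ± 3.36, 24.6 ± 2.88 and 15.1 ± 0.922 FPKM in Evx1as KO, EVX1 KO and WT cells (SD, n = 3, 3 and 2). Slc7a3 rose in Evx1as KO cells by a log2 fold change of 1.71 ± 0.12 (SE, limma adjusted p = 0.000239) and in EVX1 KO cells by 0.66 ± 0.12 (limma adjusted p = 0.0388), both against WT. Between the knockouts it was lower in EVX1 KO cells (-1.05 ± 0.10, limma adjusted p = 0.000466). The calls that hold the Evx1as KO group kept an adjusted p under 0.05 with any 1 of the 8 libraries left out, with a highest value of 0.00503 against WT and 0.00378 between the knockouts. The call in EVX1 KO against WT did not: it was lost without any 1 Evx1as KO library, without EVX1 KO library 2 and without either WT library, with a highest limma adjusted p of 0.218.

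Slc7a1, which carries the same cationic amino acids in most cell types, was not called in any comparison. It had 7.87, 10.6 and 5.08 FPKM in Evx1as KO libraries, 8.92, 14.7 and 15.1 FPKM in EVX1 KO libraries, and 10.1 and 11.7 FPKM in WT libraries. These ranges overlap in each comparison, and no difference passed the test (-0.48 ± 0.28, limma adjusted p = 0.242 in Evx1as KO against WT). Without Evx1as KO library 2 or without EVX1 KO library 1 the difference between the knockouts passed (0.89 and 0.90, limma adjusted p = 0.0375 and 0.0342), against 0.67 with all libraries. Slc7a3 made up 87.6%, 82.2% and 91.0% of the FPKM of the pair Slc7a1 and Slc7a3 in Evx1as KO libraries, 70.4%, 63.8% and 63.7% in EVX1 KO libraries, and 58.9% and 57.4% in WT libraries. The summed level of the pair was 59.7 ± 3.50 FPKM in Evx1as KO cells, 37.5 ± 6.35 in EVX1 KO cells and 26.1 ± 2.08 in WT cells (SD, n = 3, 3 and 2), so the 3 groups do not overlap. Slc7a4, a relative with no known amino acid substrate, stood at 1.12 to 1.57, 1.12 to 1.43 and 0.681 to 0.850 FPKM in Evx1as KO, EVX1 KO and WT libraries and was not called. Slc7a2 and Slc7a14 were under 1 FPKM in all libraries.

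**Figure D3:**
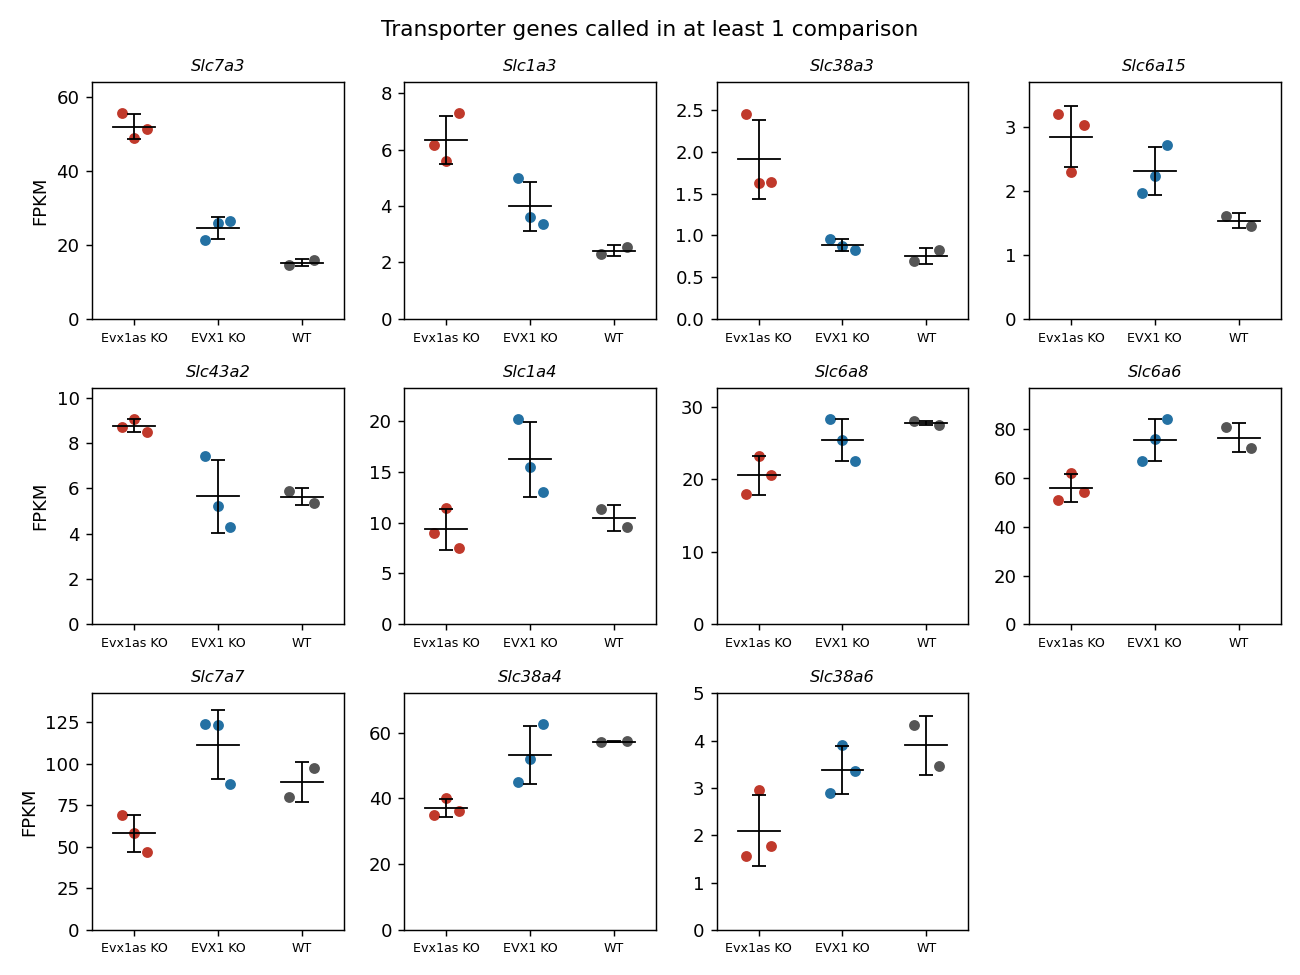
FPKM in every library of the 11 transporter genes called in at least 1 comparison, ordered by log2 fold change in Evx1as KO against WT; horizontal lines are means and bars are SD (n = 3, 3 and 2). Slc7a3 and Slc1a3 separate all 3 groups in the same order, and Slc7a7 is lowest in Evx1as KO and highest in EVX1 KO libraries 1 and 2.

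The heavy chain Slc3a2, which brings the light chains of family 7 to the cell surface, was not called in any comparison. It had 95.7, 97.8 and 82.0 FPKM in Evx1as KO libraries, 76.8, 80.6 and 99.1 FPKM in EVX1 KO libraries, and 84.6 and 79.1 FPKM in WT libraries, and these ranges overlap. Its log2 fold change in Evx1as KO against WT was 0.16 ± 0.13 (limma adjusted p = 0.378). The other heavy chain, Slc3a1, was between 0 and 0.366 FPKM and was not tested.

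Among the light chains, Slc7a7 was lower in Evx1as KO cells than in both other groups. Slc7a7 (chromosome 14, 54989125 to 55036539 in the deposited table) had 68.9, 58.2 and 46.9 FPKM in Evx1as KO libraries, 124, 123 and 87.5 FPKM in EVX1 KO libraries, and 80.2 and 97.3 FPKM in WT libraries. The Evx1as KO libraries were below all others, and EVX1 KO library 3 lay within the WT range while libraries 1 and 2 were above it. Slc7a7 fell in Evx1as KO cells against WT (-0.61 ± 0.19, limma adjusted p = 0.0469) and was higher in EVX1 KO than in Evx1as KO cells (0.93 ± 0.17, limma adjusted p = 0.00716). In EVX1 KO against WT its difference did not pass (0.31 ± 0.19, limma adjusted p = 0.381). The first call was lost without Evx1as KO library 2 or 3, EVX1 KO library 2 or either WT library, with a highest adjusted p of 0.245. The second was kept with any 1 library left out, with a highest adjusted p of 0.0342.

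The level of the whole chromosome also differed between these libraries. The median log2 level of the 502 tested genes of chromosome 14, relative to the mean of the 8 libraries, was 0.13, -0.32 and -0.31 in Evx1as KO libraries 1, 2 and 3, against 0.16, 0.17 and 0.15 in EVX1 KO libraries and 0.03 and -0.05 in WT libraries. In Evx1as KO library 1, where the chromosome median was 0.13, Slc7a7 was below both WT libraries (68.9 FPKM, against 80.2 and 97.3 FPKM). With each library's chromosome median subtracted, the fall in Evx1as KO against WT was -0.46 (limma adjusted p = 0.0776) and the difference between the knockouts was 0.60 (limma adjusted p = 0.0236). Without Evx1as KO libraries 2 and 3 these were -0.35 (adjusted p = 0.369) and 0.67 (adjusted p = 0.127) by limma, with 1 Evx1as KO library that is assumed to vary like the others. Without EVX1 KO libraries 1 and 2, the difference between the knockouts was 0.60 (limma adjusted p = 0.133). The table's Slc7a7 interval also overlaps Oxa1l by 229 bases, a gene at a mean of 44.6 FPKM, and the strand setting of the counting is unknown here.

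The other light chains were not called in any comparison. Slc7a5, the large neutral exchanger that brings in leucine, had 97.2, 92.6 and 64.1 FPKM in Evx1as KO libraries, 50.1, 68.7 and 108 FPKM in EVX1 KO libraries, and 54.9 and 54.4 FPKM in WT libraries. Every Evx1as KO library was above both WT libraries, but the spread within each knockout was wide and the difference did not pass (0.60 ± 0.28, limma adjusted p = 0.153). Without EVX1 KO libraries 1 and 2, which leaves the 2 groups compared as they are and lowers the shared spread, it did (limma adjusted p = 0.0483). Slc7a5 lies on chromosome 8, whose median over 753 genes was 0.16, 0.15 and 0.15 in Evx1as KO libraries, -0.35, -0.27 and 0.08 in EVX1 KO libraries, and 0.08 and -0.01 in WT libraries. EVX1 KO libraries 1 and 2 thus had the lowest chromosome median and the lowest Slc7a5 of their group. With chromosome medians subtracted, the log2 fold change of Slc7a5 was 0.48 (limma adjusted p = 0.120) in Evx1as KO against WT, and 0.60 (limma adjusted p = 0.150) in EVX1 KO against WT, where it was 0.39 (limma adjusted p = 0.461) without this step.

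Slc7a6, the other light chain that exchanges cationic for neutral amino acids, also lies on chromosome 8. It had 30.4, 29.6 and 29.2 FPKM in Evx1as KO libraries, 24.4, 25.9 and 36.8 FPKM in EVX1 KO libraries, and 28.6 and 26.7 FPKM in WT libraries. Between the knockouts its log2 difference was -0.06 (limma adjusted p = 0.804), and 0.28 (limma adjusted p = 0.0289) with chromosome medians subtracted, so neither direction is given. Slc7a8, the second large neutral light chain, lies on chromosome 14 and stood at 1.56 to 1.84, 0.997 to 2.24 and 0.875 to 1.16 FPKM in Evx1as KO, EVX1 KO and WT libraries. Slc7a11, the cystine and glutamate exchanger, was at 0.713, 0.439 and 0.528 FPKM in Evx1as KO libraries, 0.452, 0.564 and 0.630 in EVX1 KO libraries, and 0.674 and 0.726 in WT libraries. It was under 1 FPKM in all libraries and was not tested, and so was the alanine and serine exchanger Slc7a10 at 0.0701 to 0.321 FPKM.

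**Figure D4:**
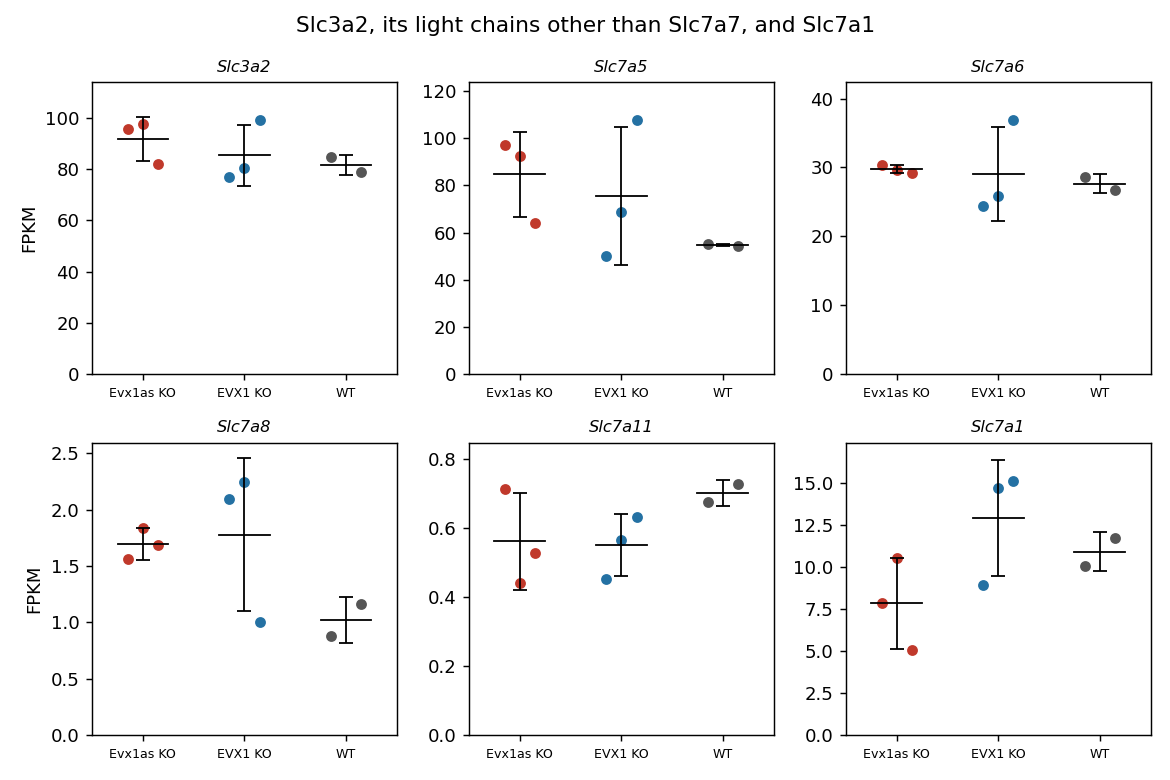
FPKM in every library of the heavy chain Slc3a2, of 4 light chains that pair with it, and of the cationic carrier Slc7a1; horizontal lines are means and bars are SD (n = 3, 3 and 2). Slc3a2 lies between 76.8 and 99.1 FPKM in all libraries, and Slc7a5 spreads from 50.1 to 108 FPKM within EVX1 KO cells.

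The sum of the 6 light chains was 199, 183 and 143 FPKM in Evx1as KO libraries, 201, 221 and 234 FPKM in EVX1 KO libraries, and 165 and 180 FPKM in WT libraries. Per unit of Slc3a2 this was 1.90 ± 0.172 in Evx1as KO cells, 2.57 ± 0.193 in EVX1 KO cells and 2.12 ± 0.231 in WT cells (SD, n = 3, 3 and 2), as ratios of FPKM. The 2 largest light chains took different shares of it by library. Slc7a5 held 48.8%, 50.6% and 45.0% of it in Evx1as KO libraries, 24.9%, 31.2% and 46.0% in EVX1 KO libraries, and 33.2% and 30.1% in WT libraries. Slc7a7 held 34.6%, 31.8% and 32.9% in Evx1as KO libraries, 61.6%, 55.8% and 37.5% in EVX1 KO libraries, and 48.5% and 53.9% in WT libraries. Slc7a5 was thus the larger of the pair in all Evx1as KO libraries and Slc7a7 in both WT libraries, while EVX1 KO library 3 was like the Evx1as KO libraries in having more Slc7a5. These shares are descriptions and were not tested. They and the ratios use FPKM without chromosome medians subtracted, and Slc7a5 lies on chromosome 8 and Slc7a7 on chromosome 14. The chromosome 8 median was -0.35, -0.27 and 0.08 in EVX1 KO libraries 1, 2 and 3, and that of chromosome 14 was 0.13, -0.32 and -0.31 in the Evx1as KO libraries. In these shares the level of the light chains and that of their chromosomes cannot be told apart.

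**Figure D5:**
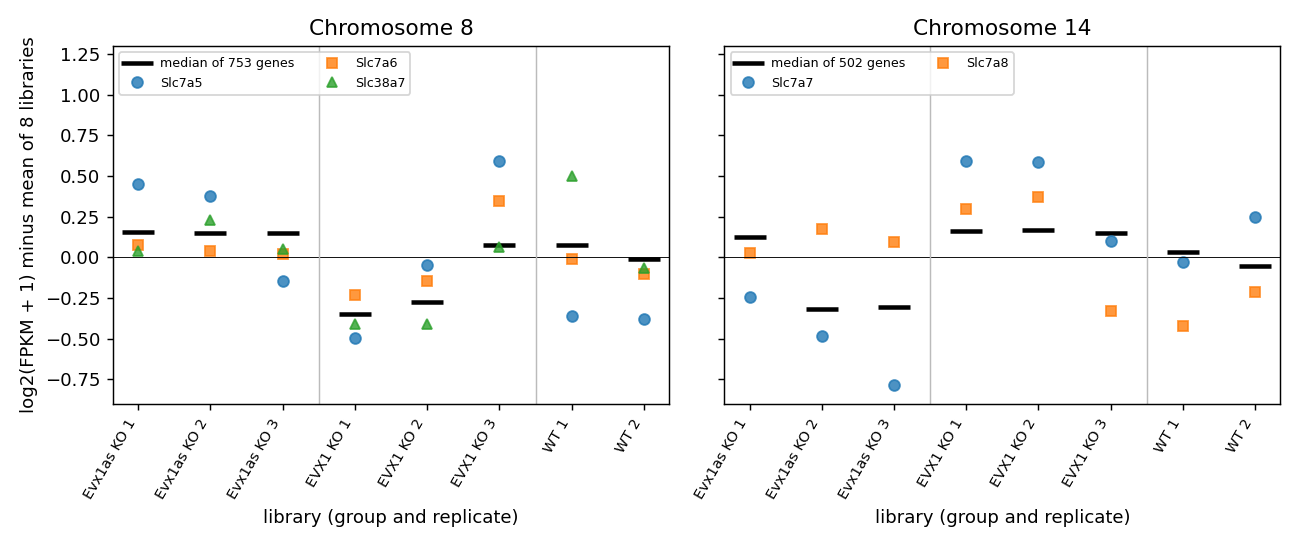
Level of the tested transporter genes of chromosomes 8 and 14 in every library, as log2(FPKM + 1) minus the gene's mean over the 8 libraries, beside the median of all tested genes of that chromosome (black bars). The medians are low in EVX1 KO libraries 1 and 2 (chromosome 8, -0.35 and -0.27) and in Evx1as KO libraries 2 and 3 (chromosome 14, -0.32 and -0.31).

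Family 1 holds glutamate carriers and neutral exchangers, and each kind gave 1 called gene. Slc1a3, which takes up glutamate and aspartate with sodium (chromosome 15, 8584123 to 8660807), had 6.15, 5.60 and 7.28 FPKM in Evx1as KO libraries, 4.99, 3.61 and 3.36 FPKM in EVX1 KO libraries, and 2.29 and 2.55 FPKM in WT libraries. As for Slc7a3, the groups do not overlap and stand in the order Evx1as KO, EVX1 KO, WT. Slc1a3 rose in Evx1as KO cells (1.10 ± 0.17, limma adjusted p = 0.00312), a call kept with any 1 library left out (highest adjusted p = 0.0293). Its difference in EVX1 KO against WT did not pass (0.53 ± 0.17, limma adjusted p = 0.128). It was lower in EVX1 KO than in Evx1as KO cells (-0.57 ± 0.15, limma adjusted p = 0.0272), a call lost without Evx1as KO library 1 or 3 or EVX1 KO library 2 or 3 (highest adjusted p = 0.104). Of the other glutamate carriers, Slc1a6 stood at 0.696 to 1.49 FPKM over all libraries and was not called, and Slc1a1, Slc1a2 and Slc1a7 did not reach the level tested.

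Slc1a4, which exchanges alanine, serine, cysteine and threonine (chromosome 11, 20202182 to 20232716), had 8.98, 11.5 and 7.55 FPKM in Evx1as KO libraries, 20.2, 15.4 and 13.0 FPKM in EVX1 KO libraries, and 11.4 and 9.58 FPKM in WT libraries. All EVX1 KO libraries were above all others, and the Evx1as KO and WT libraries overlap. It was higher in EVX1 KO than in Evx1as KO cells (0.73 ± 0.18, limma adjusted p = 0.0212). The difference from WT did not pass (0.57 ± 0.20, limma adjusted p = 0.162). The call was lost without Evx1as KO library 1 or 3 or EVX1 KO library 1 or 2 (highest adjusted p = 0.0807), and without both EVX1 KO libraries 1 and 2 the difference was 0.46 (limma adjusted p = 0.240). The related glutamine exchanger Slc1a5 had 14.6, 12.5 and 12.0 FPKM in Evx1as KO libraries, 11.8, 12.8 and 11.8 FPKM in EVX1 KO libraries, and 11.01 and 10.4 FPKM in WT libraries. Both knockouts were above both WT libraries without overlap, but the difference did not pass (0.26 ± 0.11, limma adjusted p = 0.117 in Evx1as KO against WT).

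Under amino acid shortage the factor ATF4 binds C/EBP-ATF response elements near genes of import and synthesis, Slc7a11 among them. Promoters of the transporter genes were searched for the core letters of that element, TGATGNAA, on both strands (TTNCATCA on the other strand). The windows run from 250 bases before to 50 bases after a RefSeq start on GRCm38.p6, whose coordinates differ from those of the deposited table, and 41 of the 59 genes had a window. Of all 32851 windows 3.97% hold the letters, and of the 62 windows of the transporter genes 4 do (6.45%), in Slc1a4, Slc7a7 and Slc7a11. The difference between these shares was not tested. Of the genes called between the knockouts, Slc38a4 has 3 windows, Slc43a2 has 2 and Slc1a3 has 1, and none holds the letters. Slc7a3, Slc38a3 and Slc6a6, also called there, have no window and were not searched. Slc7a11, with a match on each strand, was under 1 FPKM throughout. A window with a match is shown for each of the 3 genes that have one. Each is printed 5′ to 3′ on the gene's own strand, which is the minus strand, with the matches in capitals.
Slc1a4, chr11:20332664-20332963: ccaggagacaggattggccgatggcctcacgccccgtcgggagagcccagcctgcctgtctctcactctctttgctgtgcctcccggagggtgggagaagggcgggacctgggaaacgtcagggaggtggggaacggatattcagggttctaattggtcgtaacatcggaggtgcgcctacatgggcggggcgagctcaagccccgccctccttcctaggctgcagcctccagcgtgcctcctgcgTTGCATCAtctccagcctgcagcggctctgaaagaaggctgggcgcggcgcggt
Slc7a7, chr14:54417895-54418194: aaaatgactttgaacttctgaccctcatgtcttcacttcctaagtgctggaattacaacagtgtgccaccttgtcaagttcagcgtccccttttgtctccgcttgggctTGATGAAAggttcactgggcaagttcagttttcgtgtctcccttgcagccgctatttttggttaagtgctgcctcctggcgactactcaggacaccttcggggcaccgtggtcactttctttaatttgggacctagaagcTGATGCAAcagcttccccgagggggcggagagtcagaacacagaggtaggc
Slc7a11, chr3:50443564-50443863: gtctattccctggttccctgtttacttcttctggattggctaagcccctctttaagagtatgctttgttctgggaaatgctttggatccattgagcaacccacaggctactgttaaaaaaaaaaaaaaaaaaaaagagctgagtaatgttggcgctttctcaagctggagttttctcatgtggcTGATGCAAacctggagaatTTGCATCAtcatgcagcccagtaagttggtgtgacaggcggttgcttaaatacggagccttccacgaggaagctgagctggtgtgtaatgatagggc
In Slc1a4 the match TTGCATCA starts at -4 from the RefSeq start. In this Slc7a7 window TGATGAAA starts at -141 and TGATGCAA at -1, and 2 of its 5 windows hold a match. In Slc7a11 TGATGCAA starts at -66 and TTGCATCA at -47. A match is a run of letters and not a shown binding site. The Slc1a3 window (chr15:8710758-8711057) does not hold these letters.

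The sodium-coupled carriers of family 38 gave more tested genes than any other family (9 of 11), and they were called in both directions. Slc38a4, a neutral and cationic amino acid carrier whose gene is imprinted in the mouse (chromosome 15, 96825253 to 96886387), had 35.0, 40.0 and 36.3 FPKM in Evx1as KO libraries, 45.0, 52.2 and 62.6 FPKM in EVX1 KO libraries, and 57.2 and 57.4 FPKM in WT libraries. The Evx1as KO libraries were below all others, and the EVX1 KO libraries spread around the WT values. It fell in Evx1as KO cells against WT (-0.62 ± 0.13, limma adjusted p = 0.0110), a call lost without either WT library (highest adjusted p = 0.0625). It was higher in EVX1 KO than in Evx1as KO cells (0.50 ± 0.12, limma adjusted p = 0.0179), a call lost without Evx1as KO library 1 or 3 or EVX1 KO library 2 (highest adjusted p = 0.0651).

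Slc38a2, the glutamine and alanine carrier that amino acid shortage induces, had 57.2, 61.4 and 59.4 FPKM in Evx1as KO libraries, 64.7, 68.8 and 79.7 FPKM in EVX1 KO libraries, and 68.7 and 85.3 FPKM in WT libraries. Every Evx1as KO library was below every other library. The difference from WT lay at the threshold (-0.36 ± 0.12, limma adjusted p = 0.0548), and without EVX1 KO library 1, EVX1 KO library 3 or WT library 1 it passed (lowest adjusted p = 0.0373), as it did with median-ratio scaling (adjusted p = 0.0437). Slc38a1, the neighbouring glutamine carrier on chromosome 15, had 30.0, 36.3 and 29.4 FPKM in Evx1as KO libraries, 27.3, 33.1 and 33.4 FPKM in EVX1 KO libraries, and 39.4 and 38.9 FPKM in WT libraries. Both knockouts were below both WT libraries, and neither difference passed (-0.29 ± 0.12, limma adjusted p = 0.113 for Evx1as KO, and -0.32 ± 0.12, limma adjusted p = 0.184 for EVX1 KO). Without Evx1as KO library 2 the first did, at an adjusted p of 0.0495.

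Slc38a3, a glutamine, histidine and asparagine carrier best known from liver, kidney and brain, had 2.46, 1.63 and 1.64 FPKM in Evx1as KO libraries, 0.962, 0.869 and 0.823 FPKM in EVX1 KO libraries, and 0.688 and 0.821 FPKM in WT libraries. It reached the level tested only in the Evx1as KO libraries, so the filter had selected it for being high there. Its log2 fold change in Evx1as KO against WT was 0.72 ± 0.17 (limma adjusted p = 0.0183) and the ratio of mean FPKM was 2.53. The call was lost without Evx1as KO library 1 or either WT library (highest adjusted p = 0.0982). In EVX1 KO against Evx1as KO it was lower (-0.62 ± 0.16, limma adjusted p = 0.0238), a call lost without Evx1as KO library 1 or 3 or EVX1 KO library 2 or 3 (highest adjusted p = 0.0781).

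Slc38a6, a little-studied member of the family (chromosome 12), had 1.57, 2.96 and 1.77 FPKM in Evx1as KO libraries, 2.90, 3.91 and 3.35 FPKM in EVX1 KO libraries, and 4.34 and 3.46 FPKM in WT libraries. It fell in Evx1as KO cells against WT (-0.68 ± 0.20, limma adjusted p = 0.0403), with no overlap between these groups. The call was lost without Evx1as KO library 1 or 3, EVX1 KO library 2 or 3 or either WT library (highest adjusted p = 0.206). The lysosomal members were not called. Slc38a9, the lysosomal arginine sensor of mTORC1, had 2.23, 1.92 and 1.59 FPKM in Evx1as KO libraries, 1.66, 1.59 and 1.32 FPKM in EVX1 KO libraries, and 1.49 and 1.55 FPKM in WT libraries. Slc38a7, which exports glutamine from lysosomes and lies on chromosome 8, stood at 26.8 to 30.8, 19.3 to 27.3 and 24.9 to 37.4 FPKM in Evx1as KO, EVX1 KO and WT libraries. Slc38a10 was the steadiest of the family, at 27.1 to 30.8 FPKM over all 8 libraries, and Slc38a5 stood at 0.521 to 1.84 FPKM.

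In family 6, 4 of 17 genes reached the level tested. The taurine carrier Slc6a6 (chromosome 6, 91634060 to 91709057) had 51.2, 62.1 and 54.2 FPKM in Evx1as KO libraries, 67.1, 75.8 and 84.3 FPKM in EVX1 KO libraries, and 80.9 and 72.3 FPKM in WT libraries. All Evx1as KO libraries were below all other libraries. It fell in Evx1as KO cells against WT (-0.45 ± 0.12, limma adjusted p = 0.0271), a call lost without Evx1as KO library 1 or 3 or either WT library (highest adjusted p = 0.154). It was higher in EVX1 KO than in Evx1as KO cells (0.43 ± 0.11, limma adjusted p = 0.0232), a call lost without Evx1as KO library 1 or 3 or EVX1 KO library 2 or 3 (highest adjusted p = 0.0818). The creatine carrier Slc6a8 (chromosome X) had 17.9, 23.3 and 20.6 FPKM in Evx1as KO libraries, 28.4, 25.4 and 22.6 FPKM in EVX1 KO libraries, and 28.0 and 27.5 FPKM in WT libraries. It fell in Evx1as KO cells against WT (-0.42 ± 0.13, limma adjusted p = 0.0433), a call lost without Evx1as KO library 1 or 3, EVX1 KO library 2 or either WT library (highest adjusted p = 0.156). Its interval overlaps an unnamed gene model of the table by 495 bases, at a mean of 6.89 FPKM.

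Slc6a15, a carrier of branched-chain amino acids and proline (chromosome 10), had 3.21, 2.31 and 3.04 FPKM in Evx1as KO libraries, 1.98, 2.24 and 2.73 FPKM in EVX1 KO libraries, and 1.62 and 1.46 FPKM in WT libraries. Both knockouts were above both WT libraries. It rose in Evx1as KO cells (0.59 ± 0.16, limma adjusted p = 0.0289), a call lost without Evx1as KO library 1 or 3 or either WT library (highest adjusted p = 0.135), and in EVX1 KO cells the difference did not pass (0.38 ± 0.16, limma adjusted p = 0.226). The glycine carrier Slc6a9 had 3.30, 2.43 and 2.70 FPKM in Evx1as KO libraries, 2.98, 2.92 and 3.85 FPKM in EVX1 KO libraries, and 2.01 and 2.02 FPKM in WT libraries. Again no knockout library reached down to WT, and neither difference passed (0.33 ± 0.15, limma adjusted p = 0.148 for Evx1as KO, and 0.49 ± 0.15, limma adjusted p = 0.130 for EVX1 KO). The GABA, betaine and monoamine carriers were under the level tested; the highest single value among all 29 untested genes was 1.25 FPKM, for the betaine carrier Slc6a12 in WT library 1.

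Family 43 carries large neutral amino acids without sodium. Slc43a2 (chromosome 11, 75345195 to 75391074) had 8.69, 9.06 and 8.50 FPKM in Evx1as KO libraries, 7.43, 5.22 and 4.29 FPKM in EVX1 KO libraries, and 5.90 and 5.37 FPKM in WT libraries. The Evx1as KO libraries were close together and above all others. It rose in Evx1as KO cells against WT (0.56 ± 0.18, limma adjusted p = 0.0496), just past the threshold, and the call was lost without any 1 Evx1as KO library, EVX1 KO library 2 or either WT library (highest adjusted p = 0.204), with pseudocount 0.1 (adjusted p = 0.0539) and with median-ratio scaling (adjusted p = 0.0572). It was lower in EVX1 KO than in Evx1as KO cells (-0.58 ± 0.16, limma adjusted p = 0.0318), a call lost without any 1 Evx1as KO library or EVX1 KO library 2 or 3 (highest adjusted p = 0.103), and without both EVX1 KO libraries 1 and 2 the difference was -0.88 (adjusted p = 0.0234). Slc43a1 had 10.7, 11.4 and 10.7 FPKM in Evx1as KO libraries, 8.27, 8.42 and 10.4 FPKM in EVX1 KO libraries, and 12.2 and 9.97 FPKM in WT libraries. Slc43a3, which in human cells carries purine bases, had 1.99, 2.64 and 2.25 FPKM in Evx1as KO libraries, 2.80, 2.44 and 2.25 FPKM in EVX1 KO libraries, and 1.39 and 1.62 FPKM in WT libraries. It stood above WT without overlap in both knockouts and was not called (0.39 ± 0.15, limma adjusted p = 0.0877 for Evx1as KO).

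The proton-coupled carriers of family 36 were not called. Slc36a1, which exports small amino acids from lysosomes, had 4.63, 4.68 and 4.48 FPKM in Evx1as KO libraries, 4.47, 4.76 and 4.55 FPKM in EVX1 KO libraries, and 6.54 and 4.75 FPKM in WT libraries. WT library 1 was the highest, and the 6 knockout libraries lie within 4.47 to 4.76 FPKM. Slc36a4 had 1.11, 1.21 and 0.907 FPKM in Evx1as KO libraries, 1.68, 1.12 and 1.34 FPKM in EVX1 KO libraries, and 1.03 and 1.49 FPKM in WT libraries. Slc36a2 was above 0 only in Evx1as KO libraries 2 and 3, at 0.0630 and 0.177 FPKM. Slc36a3, Slc38a11, Slc6a18, Slc6a5, Slc7a12 and Slc7a13 were listed at 0 in all 8 libraries.

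Genes that sense or use amino acids were called in directions that differed by list. Those of mTORC1 sensing that were called were mostly higher in Evx1as KO against WT and all lower in EVX1 KO against Evx1as KO. The shares of all 13188 tested genes to read the counts of these lists against are 13% higher and 11.4% lower in Evx1as KO against WT, 0.69% and 0.554% in EVX1 KO against WT, and 10.7% and 11.3% in EVX1 KO against Evx1as KO; at an unadjusted limma p under 0.05 they are 38.5%, 21.2% and 37% in the same comparisons. Of 34 tested genes of mTORC1 amino acid sensing, 8 rose and 1 fell in Evx1as KO against WT, none rose and 1 fell in EVX1 KO against WT (11 at an unadjusted limma p under 0.05), and none was higher and 10 were lower in EVX1 KO against Evx1as KO (10 at an unadjusted p under 0.05). The 34 genes thus had 23.5% higher and 2.94% lower in Evx1as KO against WT, and 29.4% lower between the knockouts. The median log2 fold change of the 34 was 0.07, -0.06 and -0.15 in these comparisons, against 0.02, 0.02 and -0.00 over all genes tested. In Evx1as KO against WT 55.9% of the 34 had an unadjusted limma p under 0.05, against 38.5% of all tested genes. This list and those below were chosen with earlier results of these data known, so their shares beside those of all genes are descriptions only. Sesn1, a sestrin that restrains mTORC1, had 7.71, 5.35 and 7.08 FPKM in Evx1as KO libraries, 5.10, 3.50 and 3.24 FPKM in EVX1 KO libraries, and 2.71 and 2.48 FPKM in WT libraries (1.09 ± 0.19 in Evx1as KO against WT, limma adjusted p = 0.00535). Another sestrin, Sesn2, was the 1 gene of the 34 that fell in Evx1as KO against WT. Sesn2 is also on the list of the ATF4 response below and is counted there too. It had 24.8, 30.8 and 21.3 FPKM in Evx1as KO, 26.5, 30.7 and 35.2 in EVX1 KO and 43.3 and 42.4 in WT libraries. Its log2 fold change in Evx1as KO against WT was -0.74 ± 0.16 (limma adjusted p = 0.0119). Gatsl2, a relative of the cytosolic arginine sensor, stood at 7.76 to 8.69, 3.84 to 4.02 and 3.64 to 4.66 FPKM in Evx1as KO, EVX1 KO and WT libraries, and rose in Evx1as KO against WT (0.83 ± 0.12, limma adjusted p = 0.00293).

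The ATF4 response, by which cells raise amino acid import and synthesis under shortage, was mixed in Evx1as KO against WT and between the knockouts. Of its 26 tested genes 9 rose and 4 fell in Evx1as KO against WT, 2 rose and none fell in EVX1 KO against WT (13 at an unadjusted limma p under 0.05), and 6 were higher and 4 lower in EVX1 KO against Evx1as KO. In either direction 50% of the list was called in Evx1as KO against WT, 7.69% in EVX1 KO against WT and 38.5% between the knockouts, against 24.5%, 1.24% and 22% of all tested genes. The median log2 fold change of the 26 was 0.30, 0.20 and 0.17. In Evx1as KO against WT 73.1% of the list had an unadjusted limma p under 0.05, against 38.5% of all tested genes. Gpt2, the mitochondrial alanine transaminase, had 9.76, 10.8 and 11.4 FPKM in Evx1as KO libraries, 5.39, 6.17 and 9.29 FPKM in EVX1 KO libraries, and 3.80 and 4.03 FPKM in WT libraries (1.24 ± 0.19 in Evx1as KO against WT, limma adjusted p = 0.00306). The stress transcription factor gene Atf3 went the other way, with 6.94, 9.08 and 3.99 FPKM in Evx1as KO libraries, 10.3, 16.1 and 20.1 FPKM in EVX1 KO libraries, and 25.8 and 24.4 FPKM in WT libraries (-1.82 ± 0.31 in Evx1as KO against WT, limma adjusted p = 0.00479). Gpt2 was also lower in EVX1 KO than in Evx1as KO cells (-0.58, limma adjusted p = 0.0384), a call lost with chromosome medians subtracted (limma adjusted p = 0.142). Atf4 itself, named after its values were seen, had 58.2, 67.5 and 44.1 FPKM in Evx1as KO libraries, 71.4, 91.0 and 106 FPKM in EVX1 KO libraries, and 66.6 and 59.1 FPKM in WT libraries. It was higher in EVX1 KO than in Evx1as KO cells (0.65 ± 0.18, limma adjusted p = 0.0298), a call lost without Evx1as KO library 1 or 3 or EVX1 KO library 2 or 3.

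Of 11 tested amino acid carriers outside the 7 families, 1 rose and 3 fell in Evx1as KO against WT, none rose and 1 fell in EVX1 KO against WT (2 at an unadjusted limma p under 0.05), and 1 was higher and 1 lower in EVX1 KO against Evx1as KO. That is 9.09% higher and 27.3% lower in Evx1as KO against WT, against 13% and 11.4% of all tested genes. At an unadjusted limma p under 0.05 the share was 81.8% in Evx1as KO against WT, against 38.5% of all tested genes. In EVX1 KO against WT it was 18.2%, against 21.2%. Slc16a10, which carries aromatic amino acids, had 3.58, 5.94 and 3.64 FPKM in Evx1as KO libraries, 19.9, 17.0 and 14.8 FPKM in EVX1 KO libraries, and 12.6 and 15.0 FPKM in WT libraries. Slc16a10 fell in Evx1as KO cells against WT (-1.48 ± 0.20, limma adjusted p = 0.00225), and all Evx1as KO libraries were below all others. Pqlc2, which exports cationic amino acids from lysosomes, stood at 6.26 to 7.56, 7.75 to 8.50 and 12.9 FPKM in Evx1as KO, EVX1 KO and both WT libraries. It fell in Evx1as KO (-0.78 ± 0.11, limma adjusted p = 0.00261) and in EVX1 KO cells (-0.63 ± 0.11, limma adjusted p = 0.0397), both against WT. The call in EVX1 KO was lost without any 1 library other than EVX1 KO library 3. Of 20 tested cytosolic aminoacyl-tRNA synthetase genes, 2 rose and none fell in Evx1as KO against WT (10% called, against 24.5% of all tested genes), with 5 at an unadjusted limma p under 0.05 (25%, against 38.5%). None was called in EVX1 KO against WT (7 at an unadjusted p under 0.05), and 1 was higher and 1 lower in EVX1 KO against Evx1as KO. The genes that rose encode the serine and leucine synthetases (Sars at 0.48 ± 0.11 and Lars at 0.45 ± 0.10, limma adjusted p = 0.0125 and 0.0134, lost without WT library 2 and WT library 1 in that order).

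Cystine taken up by exchangers feeds glutathione synthesis. Of 13 tested genes of cystine and glutathione metabolism, 2 rose and 1 fell in Evx1as KO against WT, none rose and 1 fell in EVX1 KO against WT (4 at an unadjusted limma p under 0.05), and none was higher and 3 were lower in EVX1 KO against Evx1as KO (8 at an unadjusted p under 0.05). The share called in Evx1as KO against WT was 23.1%, near the 24.5% of all tested genes, and 23.1% were lower between the knockouts, against 11.3%. Gpx1, a glutathione peroxidase, had 287, 302 and 257 FPKM in Evx1as KO libraries, 313, 333 and 347 FPKM in EVX1 KO libraries, and 534 and 511 FPKM in WT libraries. Gpx1 fell in Evx1as KO (-0.89 ± 0.09, limma adjusted p = 0.00094) and in EVX1 KO cells (-0.66 ± 0.09, limma adjusted p = 0.0216), both against WT, and the call in EVX1 KO was lost without EVX1 KO library 1 or 2 or either WT library. Gclm, the modifier subunit of the enzyme that starts glutathione synthesis, had 21.8, 17.7 and 22.9 FPKM in Evx1as KO libraries, 10.9, 12.1 and 12.7 FPKM in EVX1 KO libraries, and 9.80 and 15.0 FPKM in WT libraries. It rose in Evx1as KO against WT (0.72 ± 0.17, limma adjusted p = 0.0181), a call lost without Evx1as KO library 1 or 3 or WT library 1.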

How the data were processed

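Expression was deposited by the authors as 1 table of FPKM values for all 8 libraries (2 WT, 3 Evx1as KO, 3 EVX1 KO). Libraries were made with a stranded mRNA kit, per the labels' protocols. The submitters' processing notes list CASAVA, TopHat2 2.0.11, mm10 and mm9 without saying which step used each. The FPKM program, its annotation and its strand setting were not given in the sources used here. Of 45772 table lines 3527 were blank; symbols standing on several lines (2660) had identical values and were used once. Genes at 1 FPKM or more in 2 or more libraries were tested as log2(FPKM + 1) with limma 3.58.1 in R 4.3.3 (1 mean per group over all 8 libraries, empirical Bayes with trend, two-sided, Benjamini-Hochberg). Tables and figures used Python 3.11.15, pandas 2.3.3, numpy 2.4.6 and matplotlib 3.10.9. Absolute depth is unknown, which limits the precision of low values.

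The transporter genes given in every library are those called in any comparison, the 3 highest of each family and listed partner genes; others are given by range. From each other list at most 4 genes called in Evx1as KO against WT were eligible, by size of change. Sesn2 and Atf4 were named outside this rule, after their values were seen. The genes and lists were chosen with earlier results of these data known. Alternatives were pseudocounts of 0.1 and 5, no filter, a filter of 5 FPKM, median-ratio scaling, array weights, fits on the compared groups only, a replicate block, chromosome centring and leaving out each library. Chosen after seeing the data were leaving out genes of chromosomes 1, 8 and 14, EVX1 KO libraries 1 and 2, and Evx1as KO libraries 2 and 3. Proteins of the transporters were not analysed here.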

Additional observations from a re-analysis of the deposited data

How the results depend on the processing

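With every alternative, each called fold change that was put through it kept its direction. The fold changes of Sesn2 and of the marker genes, Sox1 among them, were not put through the alternatives. The counts of transporter genes moved more. In Evx1as KO against WT, 5 of 30 tested genes rose and 5 fell. With no filter on low values 53 genes were tested, and 3 rose and 1 fell. With the 5 FPKM filter 18 were tested and 3 rose, as Slc38a3 and Slc6a15 did not reach that level. Leaving out 1 library each gave 2 to 5 higher and 0 to 6 lower, and 1421 to 3414 of all genes against 3230 with all libraries, and 1208 without Evx1as KO libraries 2 and 3. In EVX1 KO against WT, the 1 higher gene became 0 with no filter, with only the groups compared, and without EVX1 KO libraries 1 and 2 or Evx1as KO libraries 2 and 3 (0 to 1 leaving out 1 library). All genes called there numbered 164, against 28 with no filter, 1148 with array weights, 27 with only the groups compared, 8 without EVX1 KO libraries 1 and 2, 27 without Evx1as KO libraries 2 and 3, and 4 to 634 leaving out 1 library. The share called higher there was 55.5%, against 42.9% with no filter and 44.0% to 83.3% leaving out 1 library. In EVX1 KO against Evx1as KO, 4 were higher and 4 lower; with no filter 2 and 2, with array weights 8 higher, without EVX1 KO libraries 1 and 2 1 and 2, without Evx1as KO libraries 2 and 3 0 and 1, and leaving out 1 library 1 to 6 higher and 1 to 4 lower. All genes called there numbered 2903, against 5552 with array weights, 729 and 785 without those pairs of libraries, and 1409 to 2666 leaving out 1 library. Why array weights and the filter move these counts was not tested.

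Uncalled values changed sign for Slc7a7 (-0.013) and Slc7a8 (-0.012) in EVX1 KO against WT without EVX1 KO libraries 1 and 2, for Slc6a9 (-0.024) between the knockouts without Evx1as KO libraries 2 and 3, and for Slc7a6 between the knockouts, at 0.28 with chromosome centring, 0.30 without EVX1 KO libraries 1 and 2, and from -0.23 to 0.053 leaving out 1 library. Correlations between same-numbered libraries were -0.0985 to 0.0759, and not every library correlated best with its own number. They were taken on deviations from group means, which in groups of 2 or 3 libraries are tied to one another. They therefore do not show whether same-numbered libraries shared a batch or culture. With a replicate block, 4 transporter genes rose and 4 fell in Evx1as KO against WT, 0 rose in EVX1 KO against WT, and 4 were higher and 4 lower between the knockouts; all genes called numbered 2575, 28 and 2564. Low FPKM values rest on few reads at an unknown depth, which limits Slc38a3, Slc38a6 and Slc6a15 most. With pseudocount 5 the called fold changes in Evx1as KO against WT shrank to 0.61 for Slc1a3, 0.26 for Slc38a3, -0.33 for Slc38a6 and 0.26 for Slc6a15, and between the knockouts to -0.34 for Slc1a3, -0.23 for Slc38a3 and -0.38 for Slc43a2, all still called; with pseudocount 0.1 Slc38a3 stood at 1.21 and -1.01.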
